A study of Mus musculus with 14 samples.

Results

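The long noncoding RNAs (lncRNAs) followed here were measured in CD11b+ myeloid cells of the injured mouse brain. They were *AI506816*, *Malat1*, *Neat1*, *Gas5* and *Snhg12*, 5 of the 33939 genes in the table, of which 8117 were annotated lncRNA genes. The members were chosen by name, with earlier results of these data known. *AI506816* was selected on its difference between genotypes and the others as abundant lncRNAs, so that difference and those levels are described here without a test. All 5 symbols matched exactly 1 row each through the Ensembl gene identifiers of the mouse annotation. CD11b+ cells were sorted on magnetic beads from each hemisphere of male C57BL/6 mice aged 8 to 12 weeks, 3 days after a traumatic brain injury (TBI) made by controlled cortical impact. CL denotes the non-lesioned contralateral hemisphere and IL the injured ipsilateral one. The Ctrl mice carried *Cx3cr1-CreER*+/- alone, the cKO mice carried it together with a floxed target gene, flox/flox, and both genotypes were given tamoxifen. The Ctrl mice gave 4 libraries per hemisphere and the cKO mice 3 per hemisphere, from 8 mice in all, 6 of which gave both hemispheres (Ctrl mice 3541, 3545, 3546 and 3551, and cKO mice 791 and 3592), while cKO mouse 788 gave CL cells only and cKO mouse 784 IL cells only. *Cx3cr1* drives the inducible Cre in microglia and in other *Cx3cr1*+ cells, and the CD11b+ sort keeps infiltrating myeloid cells beside microglia.

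Values were CPM, the reads of a gene scaled to the same total in every library, and the depth recovered from their smallest steps was 12.2 to 41.6 M reads per library. All 10 homeostatic microglia markers were in the table, with a summed level of 40069 to 46313 CPM in CL and 23339 to 27495 CPM in IL. By contrast, 10 neuron markers summed to at most 26.2 CPM. Over all libraries oligodendrocyte markers summed to 179 to 330 CPM, astrocyte markers to 129 to 235 and endothelial markers to 95.5 to 298. Neutrophil markers summed to 1381 to 8422 CPM in Ctrl CL, above infiltrating monocyte markers at 275 to 887 CPM. Both hemispheres of Ctrl mice 3541 and 3545 stood apart: at 35.2 to 41.6 M reads they held 21713 to 25079 genes above 0, whereas the other libraries of 25.8 M reads or more held 27189 to 28340.

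Long noncoding RNAs act as RNA and are not translated. *Malat1* is a nuclear transcript concentrated in nuclear speckles, the bodies in which splicing factors gather. *Neat1* is the scaffold of paraspeckles, neighbouring nuclear bodies that hold a defined set of RNA-binding proteins. *Gas5* and *Snhg12* are host genes of small nucleolar RNAs (snoRNAs): the snoRNAs are cut from their introns and guide the modification of ribosomal RNA, while the spliced host RNA is exported and quickly degraded by nonsense-mediated decay. Many such host RNAs begin with a terminal oligopyrimidine stretch, the same start that couples ribosomal protein mRNAs to mTOR signalling and growth. *AI506816* is annotated as a processed transcript without a coding sequence.

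All 5 loci were taken from the mouse annotation on GRCm38, the build of the alignment. *AI506816* (ENSMUSG00000105987) lies on the minus strand of chr5:23698296-23712667 with 4479 exonic bases. *Malat1* (ENSMUSG00000092341, chr19:5795690-5802672) and *Neat1* (ENSMUSG00000092274, chr19:5824708-5845478) lie on the minus strand of one chromosome, 22.0 kb apart, with 6983 and 20771 exonic bases. *Gas5* (ENSMUSG00000053332, chr1:161034422-161038539, plus strand) has 3760 exonic bases and 10 annotated snoRNA genes inside it. *Snhg12* (ENSMUSG00000086290, chr4:132308623-132311024, plus strand) has 2402 exonic bases and 5 snoRNA genes. *AI506816* holds 1 gene annotated as a snoRNA, *Mir3096*.

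The promoter windows of the 2 snoRNA hosts and of *AI506816* are printed to show where 3 short motifs lie in them. Each window runs from 250 bases before the RefSeq transcription start to 50 bases from it, on GRCm38.p6, and 4 of the 5 members had at least 1 window in the RefSeq table. Capitals mark 3 motifs that were chosen after the sequences had been seen and were searched on both strands. They are CCTTTC, a pyrimidine run, the TATATA run of a TATA box, and TGACGTCA, the palindrome that CREB-type factors are known to bind. The first of the 2 windows of *Gas5* in that table, at chr1:161034351-161034650, held none of them and is not printed.
Gas5, chr1:161034916-161035215 (+ strand): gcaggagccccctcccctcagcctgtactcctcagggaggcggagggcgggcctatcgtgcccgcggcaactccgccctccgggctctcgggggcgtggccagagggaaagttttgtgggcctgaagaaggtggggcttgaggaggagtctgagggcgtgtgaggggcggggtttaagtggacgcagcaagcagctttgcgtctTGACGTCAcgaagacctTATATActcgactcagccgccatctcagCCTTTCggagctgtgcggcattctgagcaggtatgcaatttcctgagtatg
Snhg12, chr4:132308428-132308727 (+ strand): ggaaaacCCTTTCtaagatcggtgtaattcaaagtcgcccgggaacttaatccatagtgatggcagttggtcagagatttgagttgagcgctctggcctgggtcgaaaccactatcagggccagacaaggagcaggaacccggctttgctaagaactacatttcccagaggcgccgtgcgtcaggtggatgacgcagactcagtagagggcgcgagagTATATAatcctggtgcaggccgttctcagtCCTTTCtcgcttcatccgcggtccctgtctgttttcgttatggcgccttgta
AI506816, chr5:23712618-23712917 (- strand): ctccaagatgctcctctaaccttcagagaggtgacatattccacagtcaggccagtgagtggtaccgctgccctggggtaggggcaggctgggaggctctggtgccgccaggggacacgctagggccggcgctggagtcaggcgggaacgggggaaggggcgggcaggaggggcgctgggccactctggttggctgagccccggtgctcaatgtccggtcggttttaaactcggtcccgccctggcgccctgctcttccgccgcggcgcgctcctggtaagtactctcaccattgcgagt
In *Gas5* the CCTTTC run started at base 250 of the window and in *Snhg12* at base 249, so in both it spanned the annotated start at base 251. A TATATA run started at base 222 in *Gas5* and at base 219 in *Snhg12*. *Gas5* alone held TGACGTCA, at base 205, and *Snhg12* held CCTTTC again at base 8. The *AI506816* window and the *Malat1* window held none of the 3 exact strings. As the strings were picked with the windows in view and looser forms were not searched, this absence is no test of a difference. Over all 32851 promoter windows of this length, 23.8% held CCTTTC anywhere, 5.67% held TATATA and 1.79% held TGACGTCA. A match is a match of letters only and says nothing of which factor binds.

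*AI506816* was nearly lost in the cKO cells. In Ctrl CL its level was 90.3, 68.5, 45.6 and 112 CPM in mice 3541, 3545, 3546 and 3551, and in Ctrl IL it was 75.1, 93.5, 88.6 and 122 CPM in the same order. In cKO CL it was 0.929, 1.02 and 1.13 CPM in mice 3592, 788 and 791, and in cKO IL it was 1.53, 1.27 and 0.862 CPM in mice 3592, 784 and 791. Every cKO library thus lay below every Ctrl library in both hemispheres, where 1659 of 16570 genes in CL and 1744 of 16919 in IL had genotypes without overlap in either direction. The means were 79.0 ± 28.4 CPM (SD, n = 4) in Ctrl CL, 94.9 ± 19.9 (n = 4) in Ctrl IL, 1.03 ± 0.10 (n = 3) in cKO CL and 1.22 ± 0.338 (n = 3) in cKO IL. The means of the cKO groups were 76.8-fold lower in CL and 77.7-fold lower in IL. On the log2(CPM + 1) scale, which understates a fall to so low a level, the difference was -5.19 (SE 0.28) in CL and -5.41 (SE 0.18) in IL. This contrast is the one the gene was selected on, and no test is attached to it. The gene was not at 0 in any cKO library, as 24 to 46 reads were behind each value, against 1083 to 4185 in the Ctrl libraries.

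**Figure D1:**
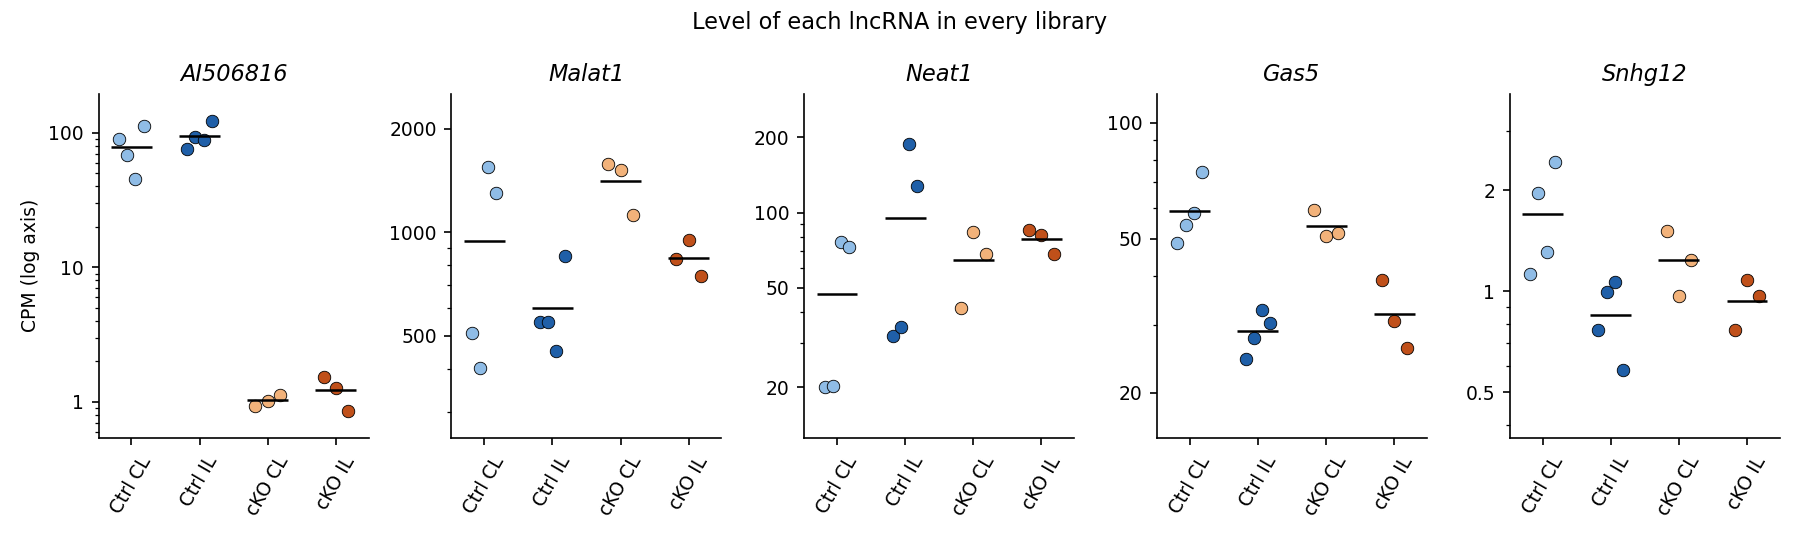
CPM of each lncRNA (log axis, one scale per panel) in every library by genotype and hemisphere; points are libraries and lines are group means. AI506816 sits at 45.6 to 122 CPM in all Ctrl libraries and at 0.862 to 1.53 CPM in all cKO libraries, whereas the genotypes overlap in the other 4 panels.

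*AI506816* did not differ past the test between the hemispheres in either genotype. IL was higher than CL by 0.40 on the log2 scale in Ctrl (SE 0.26, limma adjusted p = 0.419) and by 0.15 in cKO (SE 0.15, adjusted p = 0.517). The 95% intervals ran from -0.17 to 0.97 and from -0.20 to 0.51. Within mice the direction was mixed, higher in IL in 4 of 6 mice, with IL to CL ratios of 0.763 to 1.94. Relative to its exonic length *AI506816* ranked 16th in Ctrl CL and 11th in Ctrl IL among 2145 lncRNA genes, and 1210th and 940th in the cKO groups. These genes passed the filter set over the 14 libraries together, which does not require the read level in every library.

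No call was made among the neighbours of *AI506816*, and few genes were called between genotypes at all. Of 7 annotated genes that overlap it or lie within 100 kb, 5 were in the table and 4 were tested between genotypes, and 0 of the 4 were called (limma) in CL or IL, where 1 and 0 of them had an unadjusted p under 0.05. With backgrounds of 0.905% in CL and 0.668% in IL, no call among 4 genes says little. The smallest adjusted p, 0.085 in CL, belonged to *Srpk2*, which encodes a kinase of SR splicing factors. *Srpk2* lies 13.7 kb from *AI506816* and was higher in cKO CL, at 42.4 ± 6.94 against 25.3 ± 3.09 CPM in Ctrl CL, a log2 difference of 0.77 (SE 0.17). In IL its difference was 0.40 (SE 0.21, adjusted p = 0.646). *Pus7*, which encodes a pseudouridine synthase, and *Rint1*, which acts in vesicle tethering, differed between genotypes by -0.18 to 0.17 on the log2 scale.

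Transcripts of *AI506816* share sequence with other genes. Of all annotated mouse transcripts, those of 49 other genes matched it over at least 100 bases at 90% identity or more, 8 of them over at least 400 bases, and 7 of the 8 were in the table. Under the same limits *Malat1* matched transcripts of 1745 other genes, *Neat1* of 256, *Snhg12* of 7 and *Gas5* of 0, but over at least 400 bases *Malat1* matched 1 gene and the other 3 none. The longest match of *AI506816* was with *Gm42427* (2474 bases, 91.1% identity), elsewhere on chromosome 5, followed by *AC158975.2* (1855 bases, 90.8%). Both were low, and their lower means were in the cKO groups. *Gm42427* averaged 8.73 ± 5.32 CPM in Ctrl CL and 9.56 ± 4.10 in Ctrl IL against 4.03 ± 3.63 and 5.002 ± 3.12 in cKO CL and IL, and the genotypes overlapped. *AC158975.2* averaged 9.68 ± 5.10 and 12.5 ± 7.30 CPM in Ctrl against 2.46 ± 1.43 and 1.96 ± 0.861 in cKO, a log2 difference of -1.52 in CL and -1.93 in IL (limma adjusted p = 0.257 and 0.337). *Gm43305*, which shares 460 bases, went the other way, from 41.8 to 148 CPM in the Ctrl libraries to 89.1, 430 and 336 CPM in cKO CL and 128, 292 and 236 CPM in cKO IL (mice 3592, 788 and 791, then 3592, 784 and 791). Within the cKO groups mouse 3592 had the lowest level of all 3 of these genes in both hemispheres. *Cep85*, a centrosomal protein gene that shares 521 bases on the opposite strand, was at 146 ± 40.8 CPM in Ctrl CL and 249 ± 68.5 in cKO CL. By limma 0 of the 7 genes were called between genotypes (3 of 7 at an unadjusted p under 0.05 in each hemisphere). Over all genes 0.905% of 16570 were called in CL and 0.668% of 16919 in IL, and 10.3% and 9.23% had an unadjusted p under 0.05. Neither *Gm42427* nor *AC158975.2* reached 20 CPM in any library, whereas *Gm43305* was at 41.8 to 430 CPM and *Cep85* at 82.6 to 308. *Apobec3*, which matched over 463 bases at 98.1% identity on the opposite strand, was at 83.9 to 148 CPM. The part of shared reads in the level of *AI506816* was not tested.

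**Figure D2:**
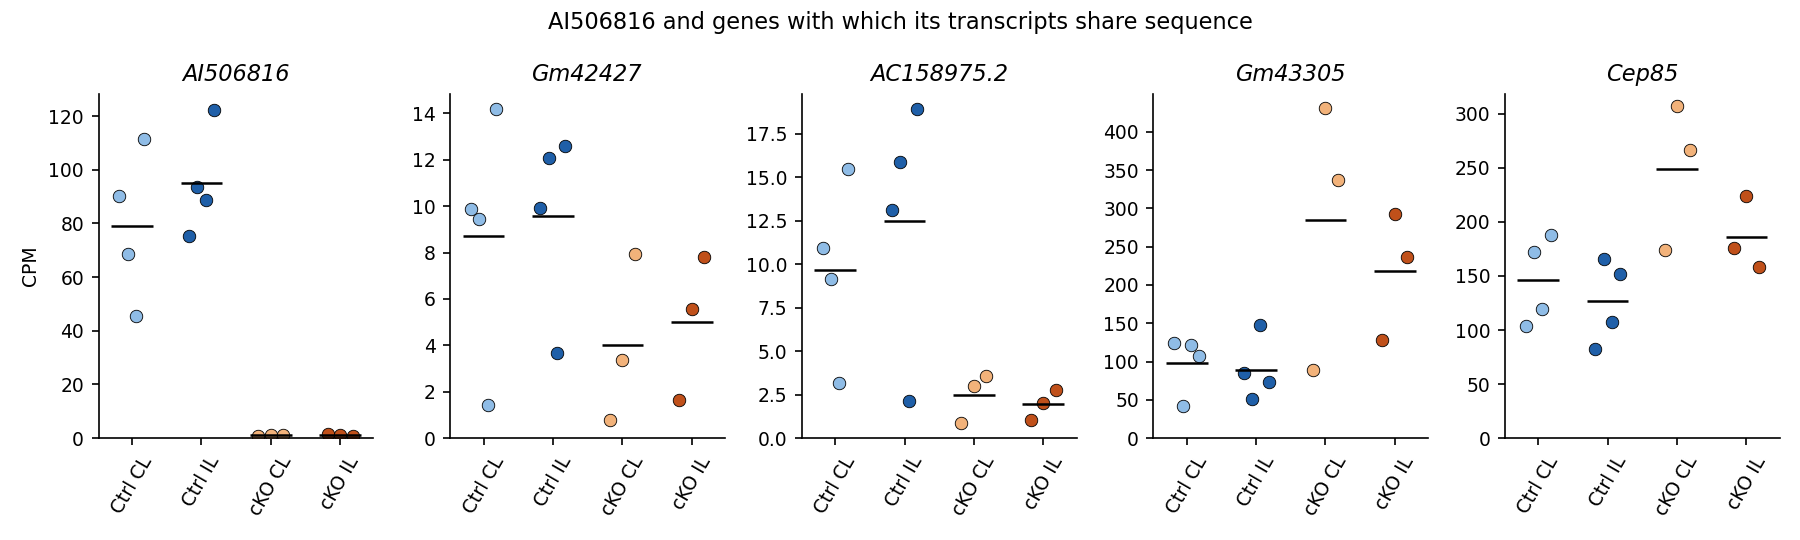
CPM (linear axis, one scale per panel) of AI506816 and of 4 genes with which its transcripts share 460 to 2474 bases, in every library by group; points are libraries and lines are group means. Gm42427 and AC158975.2 have their lower means in the cKO groups and Gm43305 and Cep85 their higher means there, and none was called between genotypes.

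*Malat1* was the most abundant of the 5, and it was lower in IL than in CL in the cKO mice. In cKO CL it was 1581, 1511 and 1125 CPM in mice 3592, 788 and 791, and in cKO IL it was 833, 951 and 745 CPM in mice 3592, 784 and 791. All 3 IL libraries lay below all 3 CL libraries, and 42.4% of all genes tested in this comparison had groups without overlap in one direction or the other. The means were 1405 ± 245 and 843 ± 103 CPM (SD, n = 3 each), a log2 change of -0.66 (SE 0.17, limma adjusted p = 0.0263). That call is read against a background of 23.1% of the 16758 genes tested that were called in this comparison. It was lost without a filter on low values (-0.66, adjusted p = 0.0701) and with all 14 libraries in 1 fit (-0.71, adjusted p = 0.281). It was also lost when any of 4 of the 6 libraries was left out, namely cKO CL 788 and cKO IL 3592, 784 and 791, with changes of -0.58 to -0.75 and adjusted p of 0.052 to 0.101.

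In the Ctrl mice the *Malat1* levels were split between animals. In Ctrl CL mice 3541 and 3545 were at 509 and 403 CPM and mice 3546 and 3551 at 1551 and 1296 CPM, while in Ctrl IL the 4 were at 547, 548, 450 and 852 CPM. Of the CL libraries, that of mouse 3545 therefore lay below every IL library, that of mouse 3541 within the IL range, and those of mice 3546 and 3551 far above it. The change from CL to IL was -0.37 on the log2 scale (SE 0.39, limma adjusted p = 0.665, 95% interval -1.25 to 0.50), against a background of 7.52% of 16376 genes called. Without both hemispheres of mice 3541 and 3545 it was -1.10 (SE 0.35, adjusted p = 0.285). *Malat1* was lower in IL in mice 3546, 3551, 791 and 3592, with IL to CL ratios of 0.290 to 0.662, and higher in mice 3541 and 3545.

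Between genotypes *Malat1* was higher in cKO by 0.85 on the log2 scale in CL (SE 0.40, limma adjusted p = 0.515) and by 0.54 in IL (SE 0.22, adjusted p = 0.491), and neither was called. Without mice 3541 and 3545 the CL difference was 0.09 (SE 0.20) and the IL difference 0.57 (SE 0.29). Per kb of exon *Malat1* ranked 2nd to 5th of 2145 lncRNA genes in the 4 groups.

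*Gm37376* was the gene whose pattern was most like that of *Malat1* (Pearson r = 0.965 over the 14 libraries, on log2 values). It is an unconfirmed annotation on the opposite strand (chr19:5801941-5802393) that lies wholly inside *Malat1*, and all of its 453 bases are *Malat1* sequence. As the library preparation keeps no strand, reads over *Gm37376* cannot be told apart from those of *Malat1*. Its row is therefore not a separate measurement, and its likeness to *Malat1* is no finding. *Gm37376* averaged 575 ± 423 CPM in Ctrl CL, 379 ± 179 in Ctrl IL, 868 ± 192 in cKO CL and 520 ± 120 in cKO IL. The sum of both rows was 1784 to 2616 CPM in cKO CL and 1131 to 1569 in cKO IL, and it was 555 to 2478 CPM in Ctrl CL and 633 to 1469 in Ctrl IL. The next genes by likeness to *Malat1* were the immediate early gene *Egr1* (r = 0.895), *Zfp36*, which encodes an mRNA decay factor (r = 0.878), *Usp10* (r = 0.878) and *Nfix* (r = 0.869). The points share libraries and depth, so these values are descriptions. With the 4 group means taken off, *Gm37376* again came first (r = 0.972), while none of the other 4 stayed among the first 5.

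*Egr1* and *Zfp36* belong to a list of 12 genes that rise when cells are dissociated, and the list was lower in IL as a sum. Its summed level was 31263 to 40832 CPM in Ctrl CL and 22546 to 25728 in Ctrl IL, and 35250 to 49353 in cKO CL and 23184 to 27299 in cKO IL. In the IL to CL comparison 1 of the 12 was called lower in Ctrl and 5 of the 12 in cKO, none was called higher, and the medians were -0.42 and -0.60 (all genes -0.03 and 0.01). The share called was 8.33% in Ctrl, near the background of 7.52%, and 41.7% in cKO, where the background was 23.1%. The part of the dissociation response in the *Malat1* values was not tested.

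*Neat1* was higher in IL than in CL in every Ctrl mouse, and the difference between mice was larger than the difference between hemispheres. In Ctrl CL it was 20.002, 20.2, 76.2 and 72.6 CPM in mice 3541, 3545, 3546 and 3551, and in Ctrl IL 32.1, 34.9, 187 and 128 CPM. Mice 3541 and 3545 were the lower pair in both hemispheres. The ratio of IL to CL was 1.61, 1.72, 2.46 and 1.76 in these 4 mice. Compared without regard to the mouse, the log2 change was 0.96 (SE 0.60, limma adjusted p = 0.406), which did not pass. With the mouse as a block, the same change of 0.96 had an SE of 0.11 and an adjusted p of 0.00176, and it was called. In that blocked fit 3349 of 16376 genes were called.

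In the cKO mice *Neat1* was 41.5, 83.8 and 68.3 CPM in CL (mice 3592, 788 and 791) and 85.4, 81.4 and 68.1 CPM in IL (mice 3592, 784 and 791), and the groups overlapped. The log2 change was 0.39 (SE 0.24, limma adjusted p = 0.275, 95% interval -0.16 to 0.94). It ran from 0.09 without the CL library of mouse 3592 to 0.63 without that of mouse 788, was 0.58 with the mouse as a block, and was called in none of these. Mouse 3592 had a ratio of 2.06 and mouse 791 a ratio of 0.998. The change in cKO minus that in Ctrl was -0.60 (SE 0.77, adjusted p = 0.9997).

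Between genotypes *Neat1* differed by 0.71 in CL (SE 0.46, limma adjusted p = 0.656) and by 0.13 in IL (SE 0.53, adjusted p = 0.977). In IL the mean CPM went the other way, at 78.3 ± 9.04 in cKO against 95.6 ± 75.7 in Ctrl. The sign of both depended on mice 3541 and 3545, without which the differences were -0.14 and -0.84 (adjusted p = 0.927 and 0.192). Per kb of its full annotated length *Neat1* ranked 101st of 2145 lncRNA genes over all libraries, at 3.44 CPM per kb. The genes most like it were *Btaf1* (r = 0.954), *Lrp1*, which encodes an endocytic receptor (r = 0.941), *Supt6*, an elongation factor gene (r = 0.940), *Fndc3b* (r = 0.939) and *Htt*, the huntingtin gene (r = 0.937). *Malat1*, its neighbour, had an r of 0.243 with it, and 0.433 with the group means taken off.

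**Figure D3:**
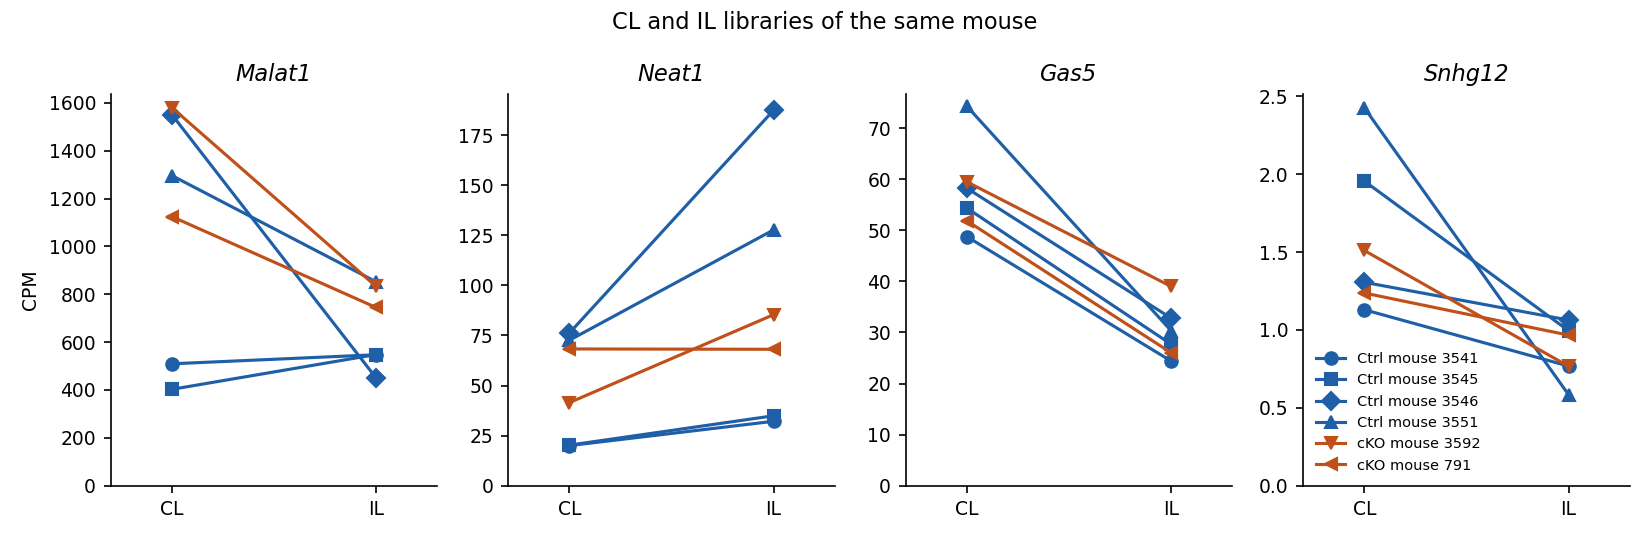
CPM (linear axes from 0) of Malat1, Neat1, Gas5 and Snhg12 in the CL and IL libraries of the 6 mice that gave both; each line is a mouse, blue for Ctrl and orange for cKO. Gas5 and Snhg12 are lower in IL in 6 of 6 mice, Neat1 is higher in IL in 5 of 6, and Malat1 is lower in IL in 4 of 6.

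*Gas5* was lower in IL than in CL in both genotypes, with little spread between mice. Both hemispheres came from injured mice, and no uninjured brain is compared here. In Ctrl CL it was 48.8, 54.3, 58.2 and 74.3 CPM and in Ctrl IL 24.4, 27.7, 32.8 and 30.4 CPM, in mice 3541, 3545, 3546 and 3551. In cKO CL it was 59.5, 50.9 and 51.9 CPM and in cKO IL 39.0, 30.6 and 26.0 CPM. No IL library reached the lowest CL library in either genotype. Groups without overlap were seen for 17.7% of all genes tested in Ctrl and for 42.4% in cKO. The means fell from 58.9 ± 10.97 to 28.8 ± 3.604 CPM in Ctrl (SD, n = 4 each) and from 54.1 ± 4.71 to 31.9 ± 6.58 CPM in cKO (n = 3 each). The log2 change was -0.91 in Ctrl (SE 0.14, limma adjusted p = 0.00386, 95% interval -1.22 to -0.61) and -0.70 in cKO (SE 0.12, adjusted p = 0.00785, 95% interval -0.98 to -0.41). Within mice the level was 1.52 to 2.45 times as high in CL as in IL in 6 of 6. Without mice 3541 and 3545, which leaves 2 Ctrl mice, the Ctrl change was -0.95 (adjusted p = 0.147). In a bulk sort, fewer cells of a type and less RNA per cell cannot be told apart, and several cell type marker lists moved in the same comparisons. Of the homeostatic microglia markers 5 of 10 were called lower in Ctrl and 6 of 10 in cKO, none higher, shares of 50% and 60% against backgrounds of 7.52% and 23.1%. Neutrophil markers summed to 877 to 1448 CPM in Ctrl IL and 851 to 1087 in cKO IL, against 1381 to 8422 and 1303 to 2342 in CL, with 0 of 10 called in Ctrl (limma, 6 at an unadjusted p under 0.05) and 6 of 10 called lower in cKO. B cell markers summed to 565 to 860 CPM in Ctrl CL and 350 to 392 in Ctrl IL, and to 670 to 767 and 344 to 515 in cKO, with 1 of 5 called lower and 1 higher in each genotype. Of the infiltrating monocyte markers 3 of 10 were called higher in Ctrl and 4 of 10 in cKO and none lower, but as a sum they overlapped, at 275 to 887 CPM in Ctrl CL and 416 to 645 in Ctrl IL, and at 160 to 400 and 344 to 523 in cKO. Astrocyte markers were at 216 to 235 CPM in Ctrl CL and 129 to 183 in Ctrl IL, and T and NK cell markers at 12.1 to 20.9 and 4.75 to 9.57, while both overlapped in cKO. Mitochondrial transcripts summed to 2798 to 3443 CPM in cKO CL and 3465 to 3873 in cKO IL, and overlapped in Ctrl. The part of RNA quality and of cell composition in the *Gas5* values was not tested.

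A difference between the genotypes in the fall of *Gas5* was not detected. The change in cKO minus that in Ctrl was 0.19 (SE 0.18, limma adjusted p = 0.9997, 95% interval -0.21 to 0.58), and 0% of the 18476 genes tested for such an interaction were called, with 490 at an unadjusted p under 0.05. Between genotypes *Gas5* differed by -0.06 in CL (SE 0.15, adjusted p = 0.928, 95% interval -0.38 to 0.27) and by 0.15 in IL (SE 0.13, adjusted p = 0.862, 95% interval -0.16 to 0.46). Per kb of exon *Gas5* ranked 27th of 2145 lncRNA genes, at 11.6 CPM per kb.

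*Zbtb37*, a zinc finger gene on the opposite strand that overlaps the 5′ part of *Gas5*, changed in the same direction. It fell from 13.6 to 5.57 CPM in Ctrl and from 12.1 to 5.92 CPM in cKO, with log2 changes of -1.09 (SE 0.19, limma adjusted p = 0.00883) and -0.85 (SE 0.16, adjusted p = 0.01002). No transcript of another gene matched *Gas5* over 100 bases, but unstranded reads in any shorter overlap cannot be told apart. The other genes most like *Gas5* over the 14 libraries were *Acy1*, an aminoacylase gene (r = 0.952), *Gm38140* (r = 0.949), *Zfp644* (r = 0.934) and *Acvr2a*, an activin receptor gene (r = 0.934), with *Zbtb37* at r = 0.932.

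*Snhg12* was not an abundant lncRNA in these cells. It ranked 648th of 2145 lncRNA genes per kb of exon, at 0.499 CPM per kb, and 13 to 78 reads per library were behind its values. In Ctrl CL it was 1.13, 1.96, 1.31 and 2.43 CPM and in Ctrl IL 0.768, 0.995, 1.06 and 0.585 CPM, in mice 3541, 3545, 3546 and 3551. Each IL library lay below each CL library, though the lowest CL and the highest IL values nearly met, and 17.7% of all genes tested in Ctrl had groups without overlap. The means were 1.70 ± 0.598 and 0.853 ± 0.219 CPM, a ratio of IL to CL of 0.5004. The log2 change was -0.48 (SE 0.19, limma adjusted p = 0.170), which did not pass. At about 1 CPM the log2(CPM + 1) scale understates a change, and with a pseudocount of 0.1 it was -0.81 in Ctrl and -0.30 in cKO (adjusted p = 0.2003 and 0.521). In cKO CL it was 1.51, 0.969 and 1.24 CPM and in cKO IL 0.767, 1.08 and 0.967 CPM, which overlapped, with a change of -0.17 (SE 0.16, adjusted p = 0.481). It was lower in IL in 6 of 6 mice, with IL to CL ratios of 0.241 to 0.814. Between genotypes it differed by -0.22 in CL (SE 0.21, adjusted p = 0.773) and by 0.08 in IL (SE 0.15, adjusted p = 0.948). Of the 10 pairs among the 5 lncRNAs, *Gas5* and *Snhg12* had the highest correlation over the 14 libraries (r = 0.726). With the group means taken off it was 0.375 and no longer the highest, as *Malat1* and *Neat1* were at 0.433 and *AI506816* and *Gas5* at 0.376.

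**Figure D4:**
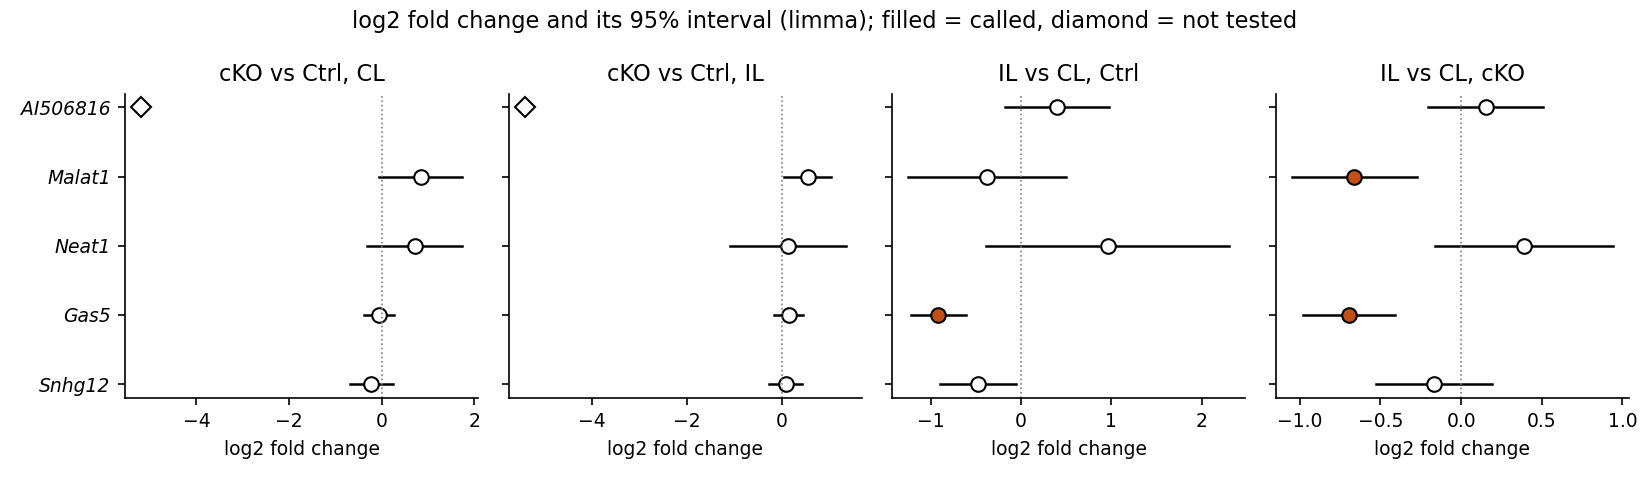
log2 fold changes (points) of the 5 lncRNAs in the 4 comparisons with 95% intervals from limma (lines); filled circles were called, open circles were not, and diamonds are the AI506816 genotype differences, shown with no interval because the gene was selected on them. Gas5 is filled in both IL to CL panels and Malat1 in the cKO one, and no lncRNA is filled between genotypes.

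The order of the 5 levels per kb of exon over all libraries was *Malat1* at 132 CPM per kb, *Gas5* at 11.6, *AI506816* at 11.2, *Neat1* at 3.44 and *Snhg12* at 0.499. The mean of *AI506816* pools Ctrl and cKO libraries that hardly resemble each other. Within Ctrl alone it was 17.6 CPM per kb in CL and 21.2 in IL, and *Gas5* 15.7 and 7.66. The place of *Neat1* rests on its full annotated length of 20771 bases, since in CPM its group means lay above those of *Gas5* in 3 of the 4 groups, for example at 95.6 ± 75.7 against 28.8 ± 3.604 in Ctrl IL. The places of *Gas5* and *Snhg12* also rest on length. Their exonic bases are 3760 of 4118 and 2402 of 2402 bases of the gene. Stretches that hold snoRNAs are thus counted as exon, which can lower their levels per kb.

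Of the other snoRNA host genes *Snhg5* fell in IL in both genotypes, and most of the list did not pass the test. Of a list of 21, 18 were in the table, and 13 were tested in Ctrl, where 2 were called lower and none higher. They were *Gas5* and *Snhg5* (log2 change -0.75, SE 0.17, limma adjusted p = 0.0284). In cKO 4 of 15 were called lower and none higher, *Gas5* with *Snhg8* (-0.59), *Snhg5* (-0.58) and *Snhg1* (-0.55). The list medians were -0.33 in Ctrl and -0.17 in cKO, and the medians over all genes tested were -0.03 and 0.01. The calls made up 15.4% of the list in Ctrl, where the background was 7.52%, and 26.7% in cKO, where it was 23.1%. Without *Gas5* and *Snhg12* 1 of 11 was called in Ctrl (9.09%) and 3 of 13 in cKO (23.1%), near the backgrounds, and the medians were -0.22 and -0.08. The summed level of the list was 106 to 162 CPM in Ctrl CL and 69.4 to 91.8 in Ctrl IL, and 126 to 138 in cKO CL and 79.9 to 99.3 in cKO IL, of which *Gas5* itself was the largest part. Between genotypes 0 of 15 were called in CL and 0 of 14 in IL by limma, with 3 and 2 at an unadjusted p under 0.05, where 0.905% and 0.668% of all genes were called.

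Among 30 other lncRNAs the calls went both ways. In Ctrl 3 of 18 were called higher in IL and 1 lower, and in cKO 2 of 16 were called higher and 6 lower. The calls made up 22.2% of those tested in Ctrl and 50% in cKO, against backgrounds of 7.52% and 23.1%. The microRNA host genes *Mir22hg* and *Mir155hg* were called higher in both genotypes, *Mir22hg* by 1.37 in Ctrl and 1.19 in cKO and *Mir155hg* by 0.80 and 1.09. *Mir155hg* carries miR-155, a microRNA induced in activated macrophages. *Ftx*, a gene of the X inactivation centre, was called lower in both, by -0.83 and -0.87. *Peg13* (-1.20), *Trp53cor1* (-1.11) and *Firre* (-0.98) had the largest falls in cKO. Over all annotated lncRNA genes 45 of 1449 were called lower in Ctrl IL and 19 higher, and in cKO 136 of 1578 were called lower and 35 higher, with medians of -0.09 and -0.12. These shares of 4.42% in Ctrl and 10.8% in cKO lie below the 7.52% and 23.1% of all genes. Between genotypes 8 of 1585 were called in IL and 13 of 1555 in CL, shares of 0.505% and 0.836% that lie near the backgrounds of 0.668% and 0.905%.

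Proteins of the nuclear bodies that *Malat1* and *Neat1* belong to were followed as well. Of 18 nuclear speckle and splicing genes 3 were called lower in Ctrl IL, *Clk1* (-0.66), *Srsf3* (-0.65) and *Srsf7* (-0.65), and none higher, with a list median of -0.20. *Srsf3* and *Srsf7* encode splicing factors and *Clk1* a kinase that phosphorylates them. In cKO 7 of 18 were called lower and 1 higher, with *Clk4* (-0.69), *Clk1* (-0.65) and *Srsf7* (-0.51) lowest and *Srsf1* (0.34) the one that was higher. These were 16.7% of the list in Ctrl and 44.4% in cKO, where 7.52% and 23.1% of all genes were called. Of 18 paraspeckle proteins 0 were called in Ctrl (3 at an unadjusted p under 0.05), and 3 were called lower in cKO, namely *Cpsf7* (-0.51), *Hnrnph3* (-0.44) and *Sfpq* (-0.34), a core protein of the body that *Neat1* scaffolds. The 3 calls are 16.7% of the paraspeckle list, below the background of 23.1%. The paraspeckle medians were -0.01 and -0.04.

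Factors of the decay and growth pathways that act on snoRNA host RNAs were called at a share below or near the background. Of 16 nonsense-mediated decay factors 0 were called in Ctrl (2 at an unadjusted p under 0.05), and in cKO the kinase gene *Smg1* was called lower (-0.39) and the exon junction gene *Rbm8a* higher (0.34), 12.5% of the list where 23.1% of all genes were called. Of 11 genes of the box C/D snoRNA particle and of oligopyrimidine control 0 were called in Ctrl (2 at an unadjusted p under 0.05). In cKO *Eif4ebp1*, which encodes a translation repressor under mTOR, was called higher (1.21), and *Rptor*, the raptor subunit of mTOR complex 1, and *Tia1*, which encodes an RNA-binding translation repressor, were called lower (-0.71 and -0.64), so that 27.3% of the list was called. The backgrounds of 7.52% in Ctrl and 23.1% in cKO differ in the same direction as these counts, and 0% of all genes were called for a difference between the genotypes. Over the 6 lists, 0 of 95 genes tested were called between genotypes in CL and 0 of 96 in IL (limma), with 8 and 6 at an unadjusted p under 0.05. Over all genes 0.905% and 0.668% were called and 10.3% and 9.23% had an unadjusted p under 0.05, so these counts are near or below the background.

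**Figure D5:**
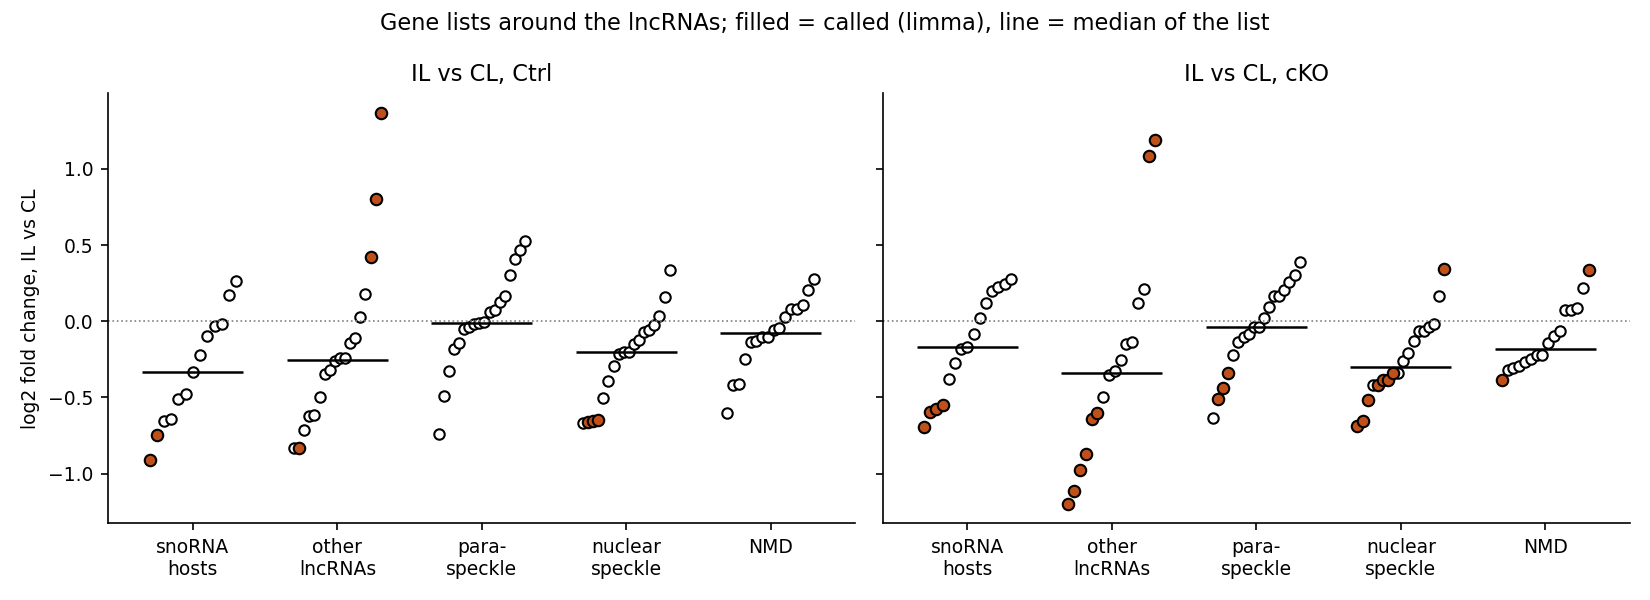
log2 fold change from CL to IL of each tested gene in 5 lists, in Ctrl (left) and cKO (right); points are genes sorted within a list, filled where called by limma, and lines are list medians. The snoRNA hosts have medians of -0.33 and -0.17, the nuclear speckle genes -0.20 and -0.30, and the paraspeckle genes -0.01 and -0.04.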

How the data were processed

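RNA of CD11b+ cells was made into cDNA libraries with SMART-Seq v4, primed by oligo-dT and without strand information, and sequenced paired-end. The authors aligned reads with STAR to mm10 and counted genes in Partek Flow (8.0). The deposited values are CPM, since each library summed to 1000000, although the table is named as counts. Between 78.5% and 83.5% of values under 100 reads were whole multiples (tolerance 0.03) of a library's smallest step, too few for a count model, so the steps gave only the depth of 12.2 to 41.6 M reads (median 34.2 M). Counting error alone is covered by that depth. The deposited tables of the authors' own fold changes and p-values were not used.

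Genes were named by the GENCODE vM21 annotation. Genes were kept at 10 reads of the median library in as many libraries as the smaller group and 15 reads in all. Values were scaled by an unweighted trimmed mean of M-values (factors 0.871 to 1.12), put on the log2(CPM + 1) scale and compared between the libraries of each pair of groups with limma 3.58.1 (trend, moderated, two-sided) in R 4.3.3, with Benjamini-Hochberg adjustment over all genes tested. A gene was called at an adjusted p of at most 0.05 and a fold of at least 1.2. The scripts were tested on simulated data. The interaction was fitted on 14 libraries. Shared sequence was searched with blastn 2.17.0.

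The number of the mouse, given in the labels, pairs CL with IL libraries of the same animal. The deviations from the group means correlated at 0.184 to 0.604 in the 6 same-mouse pairs and at -0.529 to 0.498 (median -0.218) in 19 pairs of different mice. No block is named in the methods of the study, so the block is an alternative.

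The members and the gene lists were chosen with earlier results of these data known. Beside the members, the genes named were the 5 most like each member by Pearson r among genes with a mean of at least 3 on the log2 scale, genes within 100 kb, and called genes of the lists (at most 4 in each direction). The gene targeted in the cKO is not reported here. The genes that share at least 400 bases with AI506816, and the promoter motifs, were picked after the data had been seen. Alternatives were no further scaling, upper-quartile scaling, a pseudocount of 0.1, no filter, a single fit of all 14 libraries, the mouse as a block, each library left out in turn and, added after seeing the data, mice 3541 and 3545 left out.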

Additional observations from a re-analysis of the deposited data

How the results depend on the processing

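The direction and the call of Gas5 from CL to IL held in both genotypes under every scaling, pseudocount, filter and pooled fit tried, with each library left out and with the mouse as a block (adjusted p = 0.00173 in Ctrl and 0.0166 in cKO). In cKO that block rests on the 2 mice with both hemispheres. The exception was the fit that left out both hemispheres of mice 3541 and 3545, which gave -0.95 (adjusted p = 0.147) in Ctrl from 2 mice. With the replicate block, Neat1 from CL to IL in Ctrl kept its change of 0.96 and was called, and the block changed no other call among the 5 lncRNAs. Malat1 from CL to IL in cKO lost its call without a filter (-0.66, adjusted p = 0.0701) and with all 14 libraries in 1 fit (-0.71, adjusted p = 0.281), and ran from -0.82 to -0.58 with libraries left out. The AI506816 genotype difference was -6.16 in IL and -6.01 in CL with a pseudocount of 0.1. Without mice 3541 and 3545 Neat1 between genotypes was -0.84 in IL and -0.14 in CL, and the Malat1 difference between the changes of the genotypes was 0.46 (main value -0.32). With single libraries left out, Neat1 between genotypes in IL ran from -0.21 to 0.53, Snhg12 in IL from -0.00033 to 0.16 and Gas5 in CL from -0.12 to 0.031, and none of these was called.

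Counts of called genes moved as well. Between genotypes in IL 113 genes were called, 66 without a filter, 171 in the fit of all 14 libraries, 188 when that fit took the mouse as a random effect (replicate block), 44 without mice 3541 and 3545, and 44 to 294 with single libraries left out. In CL 150 were called, and 78, 278, 296, 78 and 67 to 161 under the same settings. From CL to IL in Ctrl 1231 were called, 545 without a filter, 2182 with all 14 libraries, 3349 with the replicate block, 35 without mice 3541 and 3545, and 571 to 1662 with single libraries left out. In cKO 3870 were called, and 2507, 1705, 2458 and 1960 to 3631 without a filter, with all 14 libraries, with the block and with single libraries left out. For the interaction 0 were called, 5 with the mouse as a random effect and 0 to 1 with single libraries left out. Among the fits with single libraries left out, the highest counts between genotypes in IL and from CL to IL in Ctrl, 294 and 1662, came without Ctrl IL 3546. The cause was not tested. Depth limits Snhg12, with 13 to 78 reads per library, and AI506816 in the cKO libraries, with 24 to 46.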

Other observations

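Apart from the comparisons, the genes whose levels followed AI506816 over the 14 libraries were Fcrls, an Fc receptor-like gene of microglia (Pearson r = 0.995), Tpm3, a tropomyosin gene (0.989), Ldhb, the lactate dehydrogenase B gene (0.981), the processed pseudogene Gm5514 (0.972) and Capza1, an actin capping gene (0.966). All 5 were lower in the cKO groups. Fcrls averaged 3465 and 3371 CPM in Ctrl CL and IL and 409 and 422 CPM in cKO CL and IL, and Ldhb averaged 677 and 491 against 33.4 and 23.8 CPM. The libraries fall into the 2 genotypes for each of these genes, and the r values describe that separation. With the 4 group means taken off, the genes most like AI506816 were Gm14681 (r = 0.920), Htra3 (0.896), Gm13461 (0.896), Ppp3cc (0.895) and Paqr4 (0.875), none of which is among the first 5.

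Over the 14 libraries the gene most like Snhg12 was Mex3c (r = 0.882), which also came first with the group means taken off (r = 0.806). Mex3c encodes an RNA-binding ubiquitin ligase.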
